A study of Mus musculus with 6 samples.

Results

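C/D box small nucleolar RNAs (snoRNAs) were examined in RNA immune-precipitation sequencing (RIP-seq) of mouse hearts. They were taken as the genes named Snord followed by a number, which gave 82 of the 46072 genes in the tables of the 6 libraries. The 25 genes with such a name in capitals (SNORD) were not included. RIP-seq sequences the RNAs that come down with an antibody, here one against EZH2, the histone methyltransferase of the Polycomb repressive complex, or normal IgG as the control.

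Left ventricles came from male mice aged 10 weeks in 3 groups, with 2 mice in each. AngII 4 h and AngII 24 h mice received angiotensin II (AngII), a hormone that raises blood pressure and drives cardiac hypertrophy, for 4 h or 24 h at 1 mg/kg/min from a subcutaneous osmotic minipump. Sham mice were infused with saline by the study's methods and are called untreated in the labels. No genetic alteration is named for any group. The strain is given as C57BL/6, except for the anti-EZH2 libraries of AngII 4 h and AngII 24 h, where the labels read C57BL/7 and C57BL/8. Each group had 1 anti-EZH2 and 1 IgG library, each mixed from 2 RIP products, so there were no replicates, and a difference of the anti-EZH2/IgG ratio between groups could not be tested. Differences below compare libraries and not conditions, and intervals cover counting error only.

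C/D box snoRNAs are short RNAs of the nucleolus, and most guide the methylation of ribose in ribosomal RNA (rRNA). Their C box and D box are bound by the proteins fibrillarin, Nop56, Nop58 and Snu13, and a few members act in the cleavage or folding of precursor rRNA. In mammals most are cut out of introns of host genes, many of which encode ribosomal proteins or are non-coding RNAs known mainly as snoRNA carriers.

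The sequences of the members on which the results turn are given first, 5′ to 3′ as annotated in GENCODE M21 (GRCm38). Capitals mark the C box, searched as TGATGA with at most 1 mismatch in the first 25 nt, and the D box, searched as CTGA in the last 20 nt, both on the strand of the RNA. An exact match was taken before one with a mismatch. In Snord15a a match with 1 mismatch (TGAAGA) lies nearer the 5′ end than the marked one, so its C box is not certain. Snord22 held most of the reads, Snord104 and Snord15a were the members singled out by the study, Snord32a had the highest ratio in Sham and AngII 24 h, Snord49b the highest in AngII 4 h, and the intervals of Snord89 and Snord118 lay on opposite sides of 1 in 2 groups.
Snord22 (chr19:8725866-8725991, plus strand): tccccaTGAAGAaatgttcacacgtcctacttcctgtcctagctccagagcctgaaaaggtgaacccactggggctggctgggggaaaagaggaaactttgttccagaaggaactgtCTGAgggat
Snord104 (chr11:106500993-106501062, plus strand): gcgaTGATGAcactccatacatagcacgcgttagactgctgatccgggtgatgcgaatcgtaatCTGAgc
Snord15a (chr7:99482785-99482932, minus strand): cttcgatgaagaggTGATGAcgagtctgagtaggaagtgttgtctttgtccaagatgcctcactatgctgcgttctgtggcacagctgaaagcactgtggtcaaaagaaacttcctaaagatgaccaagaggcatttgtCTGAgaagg
Snord32a (chr7:45127382-45127464, minus strand): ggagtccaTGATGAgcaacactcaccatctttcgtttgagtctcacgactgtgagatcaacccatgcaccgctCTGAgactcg
Snord49b (chr11:62603079-62603150, plus strand): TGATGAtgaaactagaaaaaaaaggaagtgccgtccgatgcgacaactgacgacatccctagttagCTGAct
Snord89 (chr1:39548745-39548854, minus strand): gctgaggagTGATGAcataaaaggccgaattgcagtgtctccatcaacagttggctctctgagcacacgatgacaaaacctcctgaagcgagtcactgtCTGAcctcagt
Snord118 (chr11:69073427-69073561, plus strand): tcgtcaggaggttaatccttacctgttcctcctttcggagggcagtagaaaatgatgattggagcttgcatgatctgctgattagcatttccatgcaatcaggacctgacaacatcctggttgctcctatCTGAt

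An exact C box was found in 54 of the 82 members (65.9%), and 79 (96.3%) had one with at most 1 mismatch. A D box was found in 80 members (97.6%). Both boxes without a mismatch were present in 63.4% of the members, in 0% of 39 H/ACA box snoRNAs, the other large class, and in 0.0288% of 3474 annotated miRNA and snRNA genes of 60 to 250 nt. In Snord118 no C box was found in the window searched. The best match in Snord22 carried 1 mismatch. By RNAfold, Snord15a was predicted to fold with a minimum free energy of -39.80 kcal/mol and 1 hairpin loop, and Snord104 with -14.90 kcal/mol and 2 hairpin loops.

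Of the 82 members, 79 lay inside a host gene on the same strand, 56 in a protein-coding and 23 in a non-coding host. Snord118, Snord104 and Snord13 had none. There were 54 hosts in all. Within the host, 39 members were intronic in every annotated transcript, and 40 overlapped an exon of at least 1 host transcript, where reads of the host and of the snoRNA cannot be fully told apart.

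The deposited values are FPKM, fragments per kilobase of RNA and per 1000000 mapped,, a level per length. For RNAs this short FPKM are large, because 1 read is divided by the few positions that a fragment can take. In the Sham IgG library 1 read of Snord57, of 72 nt, was worth 359 FPKM, while 4 reads of Snord15a, of 148 nt, came to 90.7 FPKM. Reads were therefore recovered from the FPKM, and of the 165 values above 0 of the members 152 (92.1%) were whole to within 0.1 reads. Of the low values of all genes under 200 nt, members included, between 51.1% and 71.7% per library were whole at this tolerance, so the recovery is less certain for short genes in general. The median of these values was 4 reads. There were 42 values (25.5%) of 1 read or fewer and 61 (37%) of at least 10 reads. By the worth of 1 read, inferred from the deposited upper bounds of genes at 0, the libraries held between 3817001 and 7985562 fragments.

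Markers of cardiomyocytes were the highest of the marker lists examined. Myh6, Tnnt2, Actc1, Ryr2 and Pln summed to between 1858 and 3144 FPKM, and all 5 were above 0 in every library. The sums were 583 to 1451 FPKM for 4 erythroid genes, 38.4 to 70.6 for 3 adipocyte genes (almost entirely Fabp4, with Plin1 at 0 in all libraries), 9.76 to 24.5 for 3 fibroblast genes, 8.65 to 21.9 for 3 endothelial genes, 1.17 to 3.91 for 3 leukocyte genes and 0 to 3.25 for 3 neuronal genes. These libraries hold RNA brought down from bulk tissue. Fewer cells of a type, less RNA per cell and less RNA brought down therefore cannot be told apart.

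Detection was uneven over the family. An FPKM above 0 was found for 20 of the 82 members in IgG and for 37 in anti-EZH2 of the Sham group. There were 30 members above 0 in each AngII 4 h library, 28 in AngII 24 h IgG and 20 in AngII 24 h anti-EZH2. Sham anti-EZH2 thus listed the most members and Sham IgG, with AngII 24 h anti-EZH2, the fewest. The order did not follow the inferred depth. Sham anti-EZH2 held 5702691 fragments, and AngII 4 h anti-EZH2, the deepest, 7985562. AngII 24 h IgG, the shallowest with 3817001, listed more members than Sham IgG (4329971) and AngII 24 h anti-EZH2 (4783842). In contrast, between 33 and 36 of the 40 H/ACA box snoRNAs were above 0 in each library. The classes were not matched for length, and longer C/D box snoRNAs were detected more often, as described below. Across libraries, 15 members were above 0 in all 6, 21 in 2 to 5, 11 in 1 library only, and 35 were at 0 throughout.

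**Figure D1:**
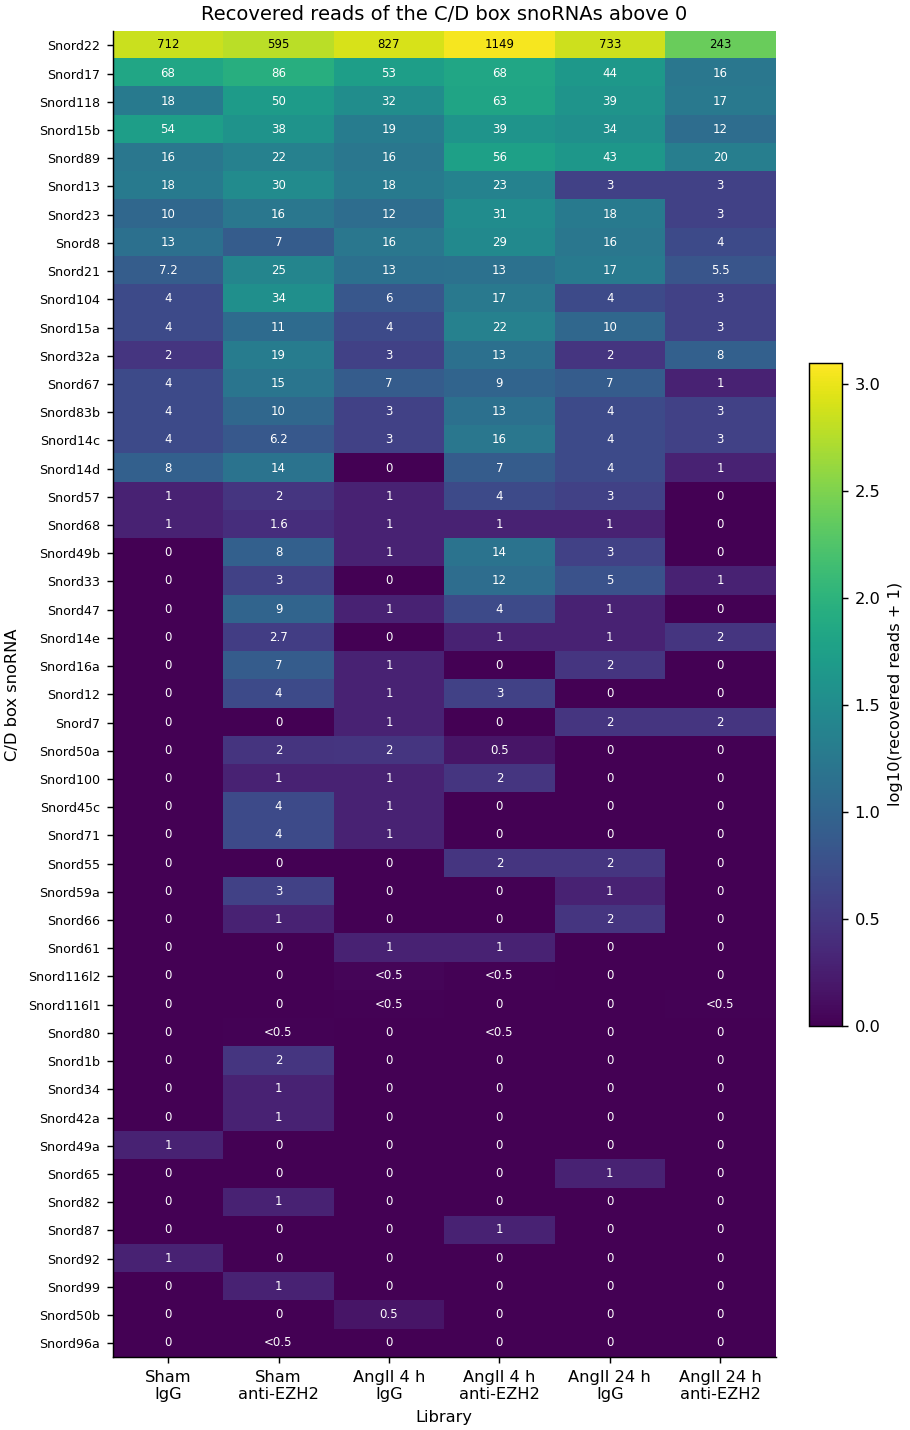
Recovered reads of the 47 C/D box snoRNAs above 0 in at least 1 library. Rows are snoRNAs, ordered by the number of libraries and then by reads, columns are the 6 libraries, and colour is log10(recovered reads + 1); "<0.5" marks an FPKM above 0 that came from under 0.5 reads. Snord22 stands above the others in every library, with 243 to 1149 reads.

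The members seen in every library were the longer ones. The median length was 79.5 nt over the family (64 to 238 nt), 110 nt among the members above 0 in all libraries and 73 nt among those at 0 in all. Of the 41 members under 80 nt, 1 was above 0 in all libraries, Snord104 with 70 nt. Of the 11 members of at least 100 nt, 10 were, and the exception was Snord90, of 111 nt, at 0 throughout. Which part of this difference came from RNA level and which from the recovery of short fragments was not tested. An exact C box was found in 80% of the members above 0 in all libraries and in 45.7% of those at 0 in all. With at most 1 mismatch the order was the reverse, with 86.7% and 97.1%, and a D box was found in 100% and 97.1%.

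**Figure D2:**
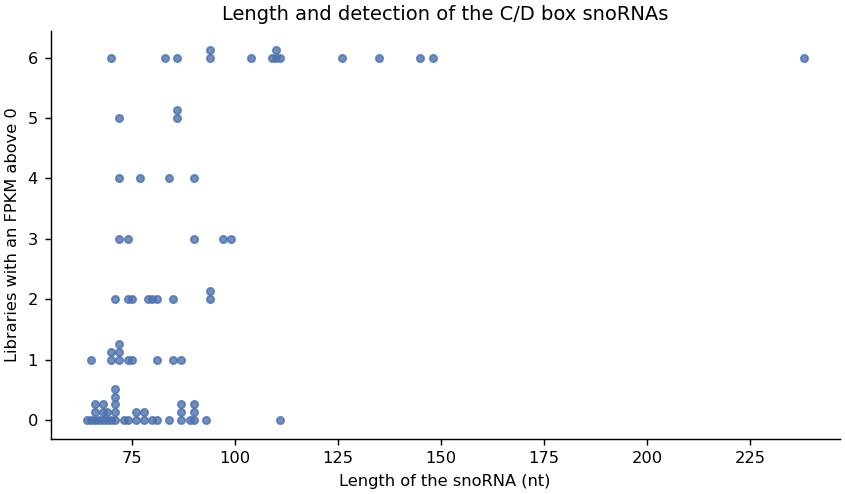
Length of each of the 82 C/D box snoRNAs (x axis, nt) against the number of libraries, of 6, in which its FPKM was above 0 (y axis); points that coincide are moved upwards slightly. Members of at least 100 nt sit at 6 libraries, except for 1 at 0.

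Some listed zeros carried a mark. The tables carry the mark LOWDATA for 31 members, the same in all 6 libraries, and 29 of these overlap an exon of the host. Of the 31, 12 were at 0 throughout and 19 were above 0 in at least 1 library, and what the mark means for these values is not given in the sources used here. Snord14c, Snord15b, Snord21 and Snord32a were marked and above 0 in all libraries. The other 23 members at 0 throughout were not marked. A count of 0 allows up to 3 reads in a library.

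Members of imprinted gene clusters, known for their expression in the brain, had almost no reads listed. The Snrpn to Ube3a region was represented by 4 members, of which Snord64 and Snord107 were at 0 throughout, and Snord116l1 and Snord116l2 reached at most 0.1 reads. Snord116l1 and Snord116l2 have the same sequence, so their reads cannot be told apart, and low values do not show that the RNA was absent. The name rule gave no gene from Snord113, Snord114 or Snord115. Genes with names in capitals were not included, so RNA of these families was not examined.

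Snord22, encoded in Snhg1 and known to act in the maturation of the small-subunit rRNA, held between 57.4% and 79.1% of the reads of the family. Snord22 reads numbered 712 in IgG and 595 in anti-EZH2 of Sham hearts. They were 827 and 1149 in AngII 4 h, and 733 and 243 in AngII 24 h. After division by depth Snord22 was lower in anti-EZH2 than in IgG in Sham and AngII 24 h, while the interval of AngII 4 h reached 1. The anti-EZH2/IgG FPKM ratio was 0.629 in Sham, 0.915 in AngII 4 h and 0.267 in AngII 24 h. The exact 95% intervals were 0.568 to 0.708 in Sham, 0.836 to 1.0 in AngII 4 h and 0.228 to 0.306 in AngII 24 h. Relative to the median of protein-coding genes the ratios were 0.789, 1.01 and 0.396. An exon of Snhg1 overlaps Snord22, and no value of Snhg1 was used here.

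Over the whole family, summed reads per 1000000 fragments (RPM) were 219 in IgG and 182 in anti-EZH2 for Sham, a ratio of 0.828 (95% interval 0.758 to 0.905). They were 199 and 202 in AngII 4 h, a ratio of 1.02 (0.939 to 1.1). The values of AngII 24 h were 264 in IgG and 73.4 in anti-EZH2, a ratio of 0.278 (0.246 to 0.315). The AngII 24 h anti-EZH2 library was thus the lowest of all and the AngII 24 h IgG library the highest. Protein-coding genes that exceeded 1 FPKM throughout, 4034 in number, had medians of 0.797 (Sham), 0.907 (AngII 4 h) and 0.673 (AngII 24 h) for the same ratio. Relative to these medians the family stood at 1.04, 1.12 and 0.413, so that the side of 1 in Sham turned with the scaling.

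Without Snord22 the direction was the opposite in Sham. The other 81 members together had 55 RPM in IgG and 77.3 in anti-EZH2 in Sham, a ratio of 1.41 (1.2 to 1.65). In AngII 4 h they had 41.7 and 58.2, a ratio of 1.4 (1.19 to 1.65). After 24 h of AngII they had 71.5 and 22.6, a ratio of 0.316 (0.25 to 0.396). The H/ACA box snoRNAs, which guide pseudouridylation, had ratios of 0.809 (0.751 to 0.872), 0.82 (0.767 to 0.876) and 0.342 (0.313 to 0.375) in the same order, so the low ratio in AngII 24 h was shared by that class.

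**Figure D3:**
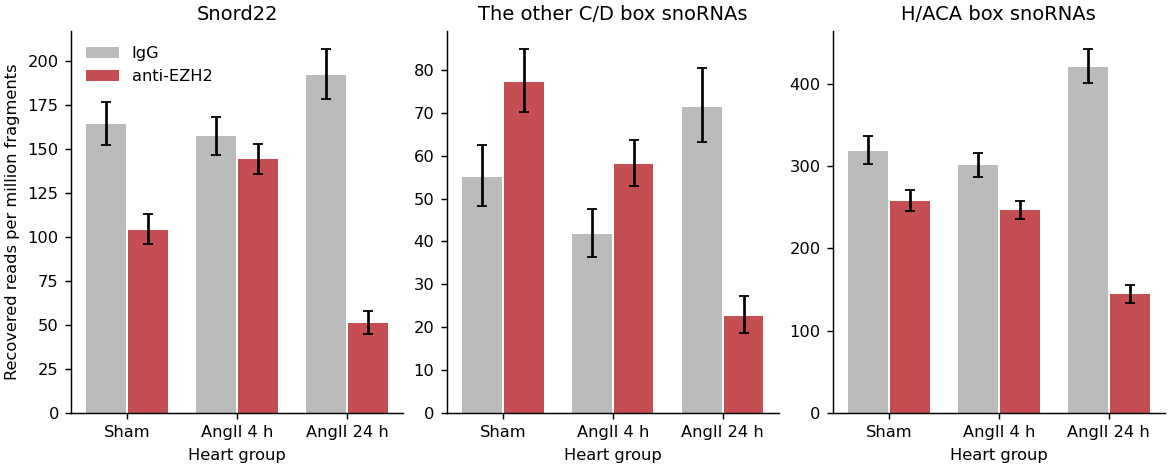
Recovered reads per 1000000 fragments (y axis) of Snord22, of the other C/D box snoRNAs and of the H/ACA box snoRNAs in the 3 heart groups. Grey bars are IgG and red bars anti-EZH2 libraries, 1 library each, and error bars are exact Poisson 95% intervals that cover counting error only. In AngII 24 h the anti-EZH2 bar is far below the IgG bar in each panel.

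The IgG and anti-EZH2 libraries moved apart in AngII 24 h from both sides. Against Sham, the RPM of all members in IgG were 0.907 times as high (0.83 to 0.991) in AngII 4 h and 1.2 times as high (1.1 to 1.31) in AngII 24 h. In anti-EZH2 they were 1.11 times as high (1.03 to 1.2) in AngII 4 h and 0.404 times as high (0.357 to 0.456) in AngII 24 h. Without Snord22 the other members were 0.753 times as high (0.66 to 0.86) in anti-EZH2 in AngII 4 h and 0.292 times as high (0.234 to 0.361) in AngII 24 h, so the higher sum of AngII 4 h came from Snord22, at 1.38 times Sham (1.25 to 1.53). In IgG the others were at 0.758 (0.628 to 0.915) and 1.3 (1.09 to 1.55). The AngII comparisons share the Sham libraries.

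Member by member, an anti-EZH2/IgG FPKM ratio could be formed for 18 members in Sham, 24 in AngII 4 h and 19 in AngII 24 h. In Sham 6 members had a ratio above 2 and 1 had a ratio below 0.5, with a median of 1.29. Over all genes above 0 in both Sham libraries 16.3% were above 2 and 22.2% below 0.5, with a median of 0.836. In AngII 4 h 8 members were above 2 and 2 below 0.5, with a median of 1.34, beside 14.8% and 16.3% of all genes and a median of 0.939. After 24 h of AngII, 1 member was above 2 and 12 were below 0.5, with a median of 0.291, beside 11.3% and 33.2% of all genes and a median of 0.686. The share of members above 2 was thus 33.3% in Sham and 33.3% in AngII 4 h, and the share below 0.5 in AngII 24 h was 63.2%. H/ACA box snoRNAs had 36.4% and 29.4% above 2 in Sham and AngII 4 h and 66.7% below 0.5 in AngII 24 h. In Sham 19 more members were above 0 in anti-EZH2 only and 2 in IgG only, in AngII 4 h it was 6 and 6, and in AngII 24 h 1 and 9. Over all genes these counts were 3095 and 1475 in Sham, 2924 and 1672 in AngII 4 h, and 1980 and 2487 in AngII 24 h, with the same direction in Sham and AngII 24 h.

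Few of these ratios were known well. Of the members with a ratio, 13 of 18 in Sham had reads that were whole, or many enough for rounding to matter little, in both libraries. In AngII 4 h it was 22 of 24 and in AngII 24 h 18 of 19. Other reads were rounded for the interval, among them those of Snord21 in each group and of Snord118 in Sham. The exact interval lay above 1 for 4 members in Sham (Snord104, Snord118, Snord21 and Snord32a) and below 1 for 2 (Snord15b and Snord22). Among genes under 250 nt with whole reads in both libraries 32.7% were above and 13.4% below in Sham. In AngII 4 h it lay above 1 for 4 members (Snord14c, Snord15a, Snord49b and Snord89) and below 1 for 0, beside 26.6% and 19.1% of short genes. For AngII 24 h it lay above 1 for 0 members and below 1 for 10, beside 2.88% and 63% of short genes. As shares of the members with a ratio these were 22.2% above 1 in Sham, 16.7% above 1 in AngII 4 h and 52.6% below 1 in AngII 24 h, none higher than the share of short genes. The sets are unlike: the short genes include members of the family and leave out pairs without whole reads or that round to 0 reads. The member shares count every member with a ratio.

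**Figure D4:**
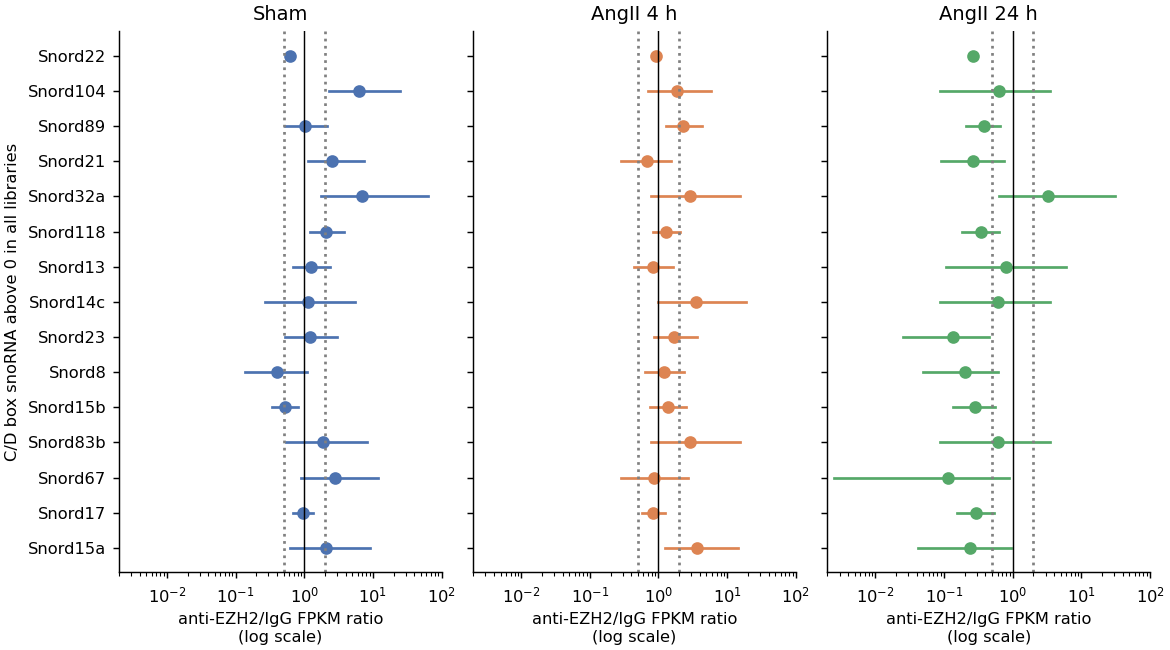
Anti-EZH2/IgG FPKM ratio (x axis, log scale) of the 15 C/D box snoRNAs above 0 in all libraries, by heart group. Points are the ratio of 1 library to 1 library, horizontal lines are exact 95% intervals from recovered reads, the solid line marks 1 and dotted lines mark 0.5 and 2. In AngII 24 h all points except Snord32a lie below 1.

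Among the members that act in rRNA cleavage and processing, or are grouped with them, 7 were listed (Snord13, Snord118, Snord22 and 4 Snord14 genes), and 6 of these were above 0 in at least 1 library. Snord118, which is needed for the maturation of the large-subunit rRNA, had 18 reads in IgG and 49.5 in anti-EZH2 in Sham. It had 32.5 and 63 reads in AngII 4 h, and 39 and 17 reads in AngII 24 h. Its ratio was 2.07 (1.21 to 3.84) in Sham, 1.28 (0.834 to 2.05) in AngII 4 h and 0.35 (0.184 to 0.629) in AngII 24 h. Thus Snord118 was higher in anti-EZH2 in Sham and lower in AngII 24 h, beyond counting error in each.

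Snord13, which helps to guide the acetylation of the small-subunit rRNA, had 18 reads in IgG and 30 in anti-EZH2 in Sham, and 18 and 23 in AngII 4 h. Both AngII 24 h libraries held 3 reads. Its ratios of 1.25 (0.683 to 2.41), 0.841 (0.434 to 1.65) and 0.809 (0.107 to 5.96) all had intervals that held 1. Both AngII 24 h libraries were thus the lowest, with 279 FPKM in IgG and 226 in anti-EZH2, against 1037 to 1867 FPKM in the other libraries.

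The Snord14 genes, which guide the methylation of the small-subunit rRNA and act in its processing, lie mostly in Hspa8, the gene of a constitutive heat-shock chaperone. Snord14c had 4 and 6.2 reads in IgG and anti-EZH2 in Sham, 2.96 and 16 in AngII 4 h, and 4 and 3 in AngII 24 h. Its ratio of 3.56 in AngII 4 h had an interval (1.0 to 18.8) that barely excluded 1. Snord14d had 8 and 14.3 reads in Sham, 0 and 7 in AngII 4 h, and 4 and 1 in AngII 24 h. With at most 3 reads allowed for a count of 0, Snord14d was at least 1.54-fold higher in anti-EZH2 in AngII 4 h, but the exact lower limit for 7 against 0 reads was 0.949, so that equal levels were not excluded by counting error. Together the 3 members in Hspa8 had a ratio of 1.46 (0.695 to 3.21) in Sham, 5.27 (1.6 to 27.3) in AngII 4 h and 0.532 (0.156 to 1.67) in AngII 24 h, while Hspa8 itself had 0.704, 1.06 and 0.627. These 3 members each overlap an exon of Hspa8, so that member and host values are not independent. Snord14c and Snord14d are nearly identical in sequence, so their separate values may depend on how reads were assigned. Snord14a, in Rps13, was at 0 throughout. The source of the fractions of a read was not tested.

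Of the guides of rRNA methylation, Snord104 lay in no annotated host gene. It had 4 reads (1620 FPKM) in IgG and 34 reads (10075 FPKM) in anti-EZH2 of Sham hearts. It had 6 and 17 reads in AngII 4 h, and 4 and 3 in AngII 24 h. The Sham anti-EZH2 library stood apart from the other 5, which held 3 to 17 reads. The ratio was 6.22 (2.3 to 25) in Sham, 1.87 (0.702 to 5.78) in AngII 4 h and 0.621 (0.0877 to 3.54) in AngII 24 h, and the intervals of AngII 4 h and AngII 24 h held 1.

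Snord15a and Snord15b both lie in Rps3, which encodes a protein of the small ribosomal subunit, and guide the methylation of the large-subunit rRNA. Snord15a had 4 reads in IgG and 11 in anti-EZH2 in Sham, 4 and 22 in AngII 4 h, and 10 and 3 in AngII 24 h. Its ratio was 2.08 (0.619 to 8.99) in Sham, 3.62 (1.23 to 14.5) in AngII 4 h and 0.241 (0.0423 to 0.93) in AngII 24 h. Snord15b was the more abundant, with 54 and 38 reads in Sham, 18.9 and 39 in AngII 4 h, and 34 and 12 in AngII 24 h. Its ratio was 0.531 (0.343 to 0.824) in Sham, 1.36 (0.762 to 2.48) in AngII 4 h and 0.283 (0.133 to 0.557) in AngII 24 h. In Sham the 2 RNAs of the same host therefore lay on opposite sides of 1, although the interval of Snord15a held 1 and overlapped that of Snord15b. The host had 0.837, 1.06 and 0.444, and Snord15b overlaps an exon of it, so their values are not independent.

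Snord32a was the member with the highest ratio in Sham and in AngII 24 h. It is encoded, with Snord33, Snord34 and Snord35a, in Rpl13a, a group of snoRNAs known from the response of cells to lipid overload. Snord32a had 2 reads in IgG and 19 in anti-EZH2 in Sham, 2.95 and 13 in AngII 4 h, and 2 and 8 in AngII 24 h. It was higher in anti-EZH2 in each group, with ratios of 7.04 (1.74 to 63.9), 2.9 (0.784 to 15.6) and 3.27 (0.637 to 30.9), and only the interval of Sham excluded 1. It was the single member above 2 in all groups.

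The other Rpl13a members were thinner. Snord33 had 0 and 3 reads in Sham, 0 and 12 in AngII 4 h, and 5 and 1 in AngII 24 h, so that it was at least 2.63-fold higher in anti-EZH2 in AngII 4 h against 3 reads, with an exact lower limit of 1.83. Snord34 had 1 read in Sham anti-EZH2 and 0 elsewhere, and Snord35a was at 0 throughout. Summed over the 4 members the ratio was 8.73 (2.16 to 76.4) in Sham, 5.49 (1.67 to 28.4) in AngII 4 h and 1.03 (0.34 to 3.24) in AngII 24 h. The ratio of Rpl13a itself was 0.336, 1.17 and 1.03, so the intervals of the snoRNAs lay above the ratio of the host, which has no error here, in Sham and AngII 4 h. Snord33 overlaps an exon of Rpl13a, so its value and that of the host are not independent.

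Snord89, which lies in an intron of the non-coding Gm15832, had 16 reads in IgG and 22 in anti-EZH2 in Sham, 16 and 56 in AngII 4 h, and 43 and 20 in AngII 24 h. Its ratio was 1.03 (0.524 to 2.13) in Sham, 2.3 (1.3 to 4.3) in AngII 4 h and 0.376 (0.207 to 0.645) in AngII 24 h. Gm15832 itself was listed at 0 in all 6 libraries. The study names it among the lncRNAs with a constantly enhanced EZH2 association under AngII, and the source of this difference was not tested. Snord21, in Rpl5, a protein gene of the large ribosomal subunit, had 7.16 and 24.7 reads in Sham, 13.1 and 13.3 in AngII 4 h, and 17.2 and 5.52 in AngII 24 h. Its ratio went from 2.58 (1.14 to 7.43) in Sham to 0.669 (0.281 to 1.54) in AngII 4 h and 0.261 (0.0909 to 0.749) in AngII 24 h. The intervals of Snord21 rest on reads that were not whole and were rounded. Snord21 overlaps an exon of Rpl5, so its value and that of the host are not independent.

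Snord17, the longest member with 238 nt, in Snx5, had the most reads in total after Snord22. It had 68 and 86 reads in Sham, 53 and 68 in AngII 4 h, and 44 and 16 in AngII 24 h. The ratios of 0.959 (0.691 to 1.34) and 0.845 (0.581 to 1.23) in Sham and AngII 4 h had intervals that held 1, and that of AngII 24 h was 0.291 (0.153 to 0.524). Snord23, in Nop53, had ratios of 1.2, 1.7 and 0.135, Snord8, in Chd8, of 0.404, 1.19 and 0.202, and Snord67, in Ckap5, of 2.81, 0.846 and 0.115. For these 3 members only the interval of AngII 24 h excluded 1, with upper bounds of 0.456, 0.618 and 0.887. Snord83b, in Rpl3, had ratios of 1.86, 2.85 and 0.609, and each interval held 1.

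Among non-coding hosts, 2410006H16Rik carries Snord49a, Snord49b and Snord65. Snord49b had 0 reads in IgG and 8 in anti-EZH2 in Sham, 1 and 14 in AngII 4 h, and 3 and 0 in AngII 24 h. It was at least 2.02-fold higher in anti-EZH2 in Sham against 3 reads (exact lower limit 1.3), and its ratio of 9.22 in AngII 4 h (1.4 to 390) rests on 1 read in IgG. Snord49a and Snord65 had 1 read each in all libraries together. The host had ratios of 0.379, 0.878 and 0.266.

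Gas5, a non-coding host that is spliced and carries several snoRNAs, held Snord47, Snord78 and Snord80 among the members. Snord47 had 0 and 9 reads in Sham, 1 and 4 in AngII 4 h, and 1 and 0 in AngII 24 h, which made it at least 2.28-fold higher in anti-EZH2 in Sham against 3 reads (exact lower limit 1.5). Snord80 came from at most 0.04 reads, and Snord78 was at 0 throughout. Gas5 itself had ratios of 0.447, 2.81 and 0.958. The 3 members each overlap an exon of a Gas5 transcript, so that member and host values are not independent.

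Where a member and its host were both above 0 in both libraries, the member had the higher ratio in 11 of 13 pairs in Sham, in 9 of 18 in AngII 4 h and in 3 of 13 in AngII 24 h. The medians were 1.33 for members and 0.704 for hosts in Sham, 1.53 and 1.06 in AngII 4 h, and 0.261 and 0.627 in AngII 24 h. Members of the same host share it and are not independent, and several overlap an exon of it. No minimum of reads was set: in AngII 4 h, Snord116l2 entered with 0.1 and 0.05 reads and Snord61 with 1 read in each library. The members thus stood mostly above the host in Sham and mostly below it in AngII 24 h. Short genes in general leaned to the same sides of 1. Of those under 250 nt with whole reads, 32.7% had an interval above 1 and 13.4% below in Sham. In AngII 24 h it was 2.88% and 63%. Whether the lean is particular to snoRNAs and their hosts was not tested.

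**Figure D5:**
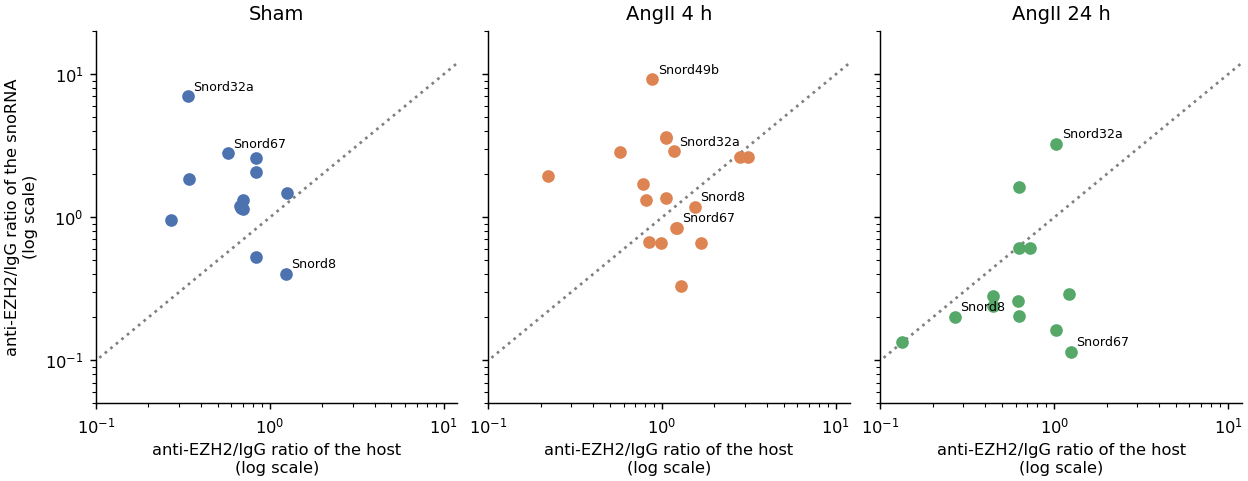
Anti-EZH2/IgG FPKM ratio of each C/D box snoRNA (y axis, log scale) against that of its host gene (x axis, log scale), by heart group, with 13, 18 and 13 pairs. The dotted line marks equal ratios. Most points lie above it in Sham and below it in AngII 24 h, where Snord32a is an exception.

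The genes of the C/D box proteins were low in all libraries. Fbl, the methyltransferase fibrillarin, had between 0.199 and 3.14 FPKM, Nop56 between 2.37 and 9.89, Nop58 between 2.08 and 5.19 and Nhp2l1, the former name of Snu13, between 3.55 and 8.45. In AngII 24 h, where the snoRNAs had their lowest ratios, those of Fbl, Nhp2l1 and Nop58 were 1.51, 1.48 and 1.35 and that of Nop56 was 0.74. The spread was wider in AngII 4 h, with 15.8 for Fbl (0.199 FPKM in IgG), 3.12 for Nop56, 0.531 for Nhp2l1 and 0.478 for Nop58. Sham had 1.08, 1.25, 1.12 and 0.665 in the same order. No error can be given for these values, since reads were not recovered for longer genes.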

How the data were processed

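Left ventricles of Sham, AngII 4 h and AngII 24 h mice were subjected to RIP-seq with anti-EZH2 and IgG. The authors prepared stranded libraries, mapped reads to mm10 with TopHat2 and deposited FPKM, in 1 table per library, which were used here, and in a table of the whole series, used as an alternative. The program behind the FPKM is not given in the sources used here, and the columns are those of Cufflinks. The labels give no replicate libraries. FPKM of short RNAs rest on a model of fragment length, so levels of members that differ in length depend on it, while ratios of 1 gene between libraries hardly do.

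Members were matched by identifier to GENCODE M21 (GRCm38), and the shortest gene that spans a member on the same strand was its host. FPKM below 0.001 were set to 0. Reads were recovered as FPKM times effective length (fragments of mean 200 nt and SD 80 nt, shortest 33 or 34 nt) over the worth of 1 read, and exact Clopper-Pearson 95% intervals were calculated for ratios of rounded reads. The worth of 1 read, and with it the depth of each library, was inferred from the deposited upper bound of genes at 0. That bound was assumed to be a fixed number of reads over the plain length. A limit of 3 reads was used for a 0. Recovery was tested on simulated data of the Sham libraries over 6522 genes: 100% of the reads were recovered, and 96.4% of intervals held the true ratio. The simulated FPKM were made with the same fragment model that the recovery uses. The test therefore checks the calculation and cannot show whether that model holds for these data.

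The members and lists were chosen with earlier results of these data known. Members named were Snord15a, Snord104, the 10 with the highest geometric mean FPKM and the 3 highest and 3 lowest ratios of each group among those above 0 in all libraries, 14 in all, with list members and hosts by count. Snord33, Snord34, Snord47, Snord49b, Snord57, Snord83b, Snord90 and the other members described for their zeros, ratios or hosts fall outside that rule and were chosen after their values were seen. Structures were predicted with ViennaRNA 2.7.2, and calculations were made in Python 3.11.15 with scipy 1.17.1, pandas 2.3.3, numpy 2.4.6 and matplotlib 3.10.9. The alternatives are given in the closing section.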

Additional observations from a re-analysis of the deposited data

Results flagged for a closer look

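Members whose exact ratio interval lay above 1 in 1 group and below 1 in another were looked at again. With 1 library in each arm the difference between the groups was not tested. Snord118 had an anti-EZH2/IgG ratio of 2.07 in Sham and 0.35 in AngII 24 h, and Snord21 had 2.58 and 0.261. The intervals of Snord21, and that of Snord118 in Sham, rest on reads that were not whole and were rounded. Snord15a had 3.62 in AngII 4 h and 0.241 in AngII 24 h, and Snord89 had 2.3 and 0.376. In AngII 24 h 63% of the genes under 250 nt with whole reads also had an interval below 1, so these 4 members share that side with most short RNAs of the same libraries.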

How the results depend on the processing

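Of 75 alternative values of the counts, medians and summed ratios, 44 stayed within 1.5 times the count or inside the 95% interval, and 31 did not. For summed ratios this is the exact interval of the reads. For medians it was taken from the ranked ratios of the members, which are not replicates, so it does not measure counting error. Adding a pseudocount of 1 FPKM gives a ratio to members at 0 in 1 library. It gave one to 39 members in Sham, 36 in AngII 4 h and 29 in AngII 24 h. Of these, 24, 13 and 2 were above 2 and 3, 8 and 21 below 0.5, and the median of Sham was 6.22. The series table, with an entry of its own for 49 members, gave a ratio to 10, 11 and 11 members. Of these, 3, 4 and 0 were above 2, and 0 were below 0.5 in AngII 4 h and 6 in AngII 24 h. Where deposited intervals had to be apart, 1, 0 and 0 members were above 2 and 0, 0 and 6 below 0.5, but 121 of the 165 FPKM lie outside their own deposited interval. When ratios were scaled by that of the median among 4034 protein-coding genes (0.797, 0.907 and 0.673), 0 members were below 0.5 in Sham and 2 were above 2 in AngII 24 h. Of the 16 members with at least 10 reads in the pair of AngII 4 h libraries, 0 were below 0.5. Without the members in Rpl13a, 0 of 17 were above 2 in AngII 24 h. Shares over all genes were not calculated for these alternatives. 

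Another 3 alternatives were chosen after seeing the data. Without the members marked LOWDATA, 4 of 15 were above 2 and 1 below 0.5 in AngII 4 h and 0 of 12 above 2 in AngII 24 h. The ratio of summed reads was 1.41, 1.4 and 0.316 without Snord22, and 1.04, 1.12 and 0.413 after division by the protein-coding median, so its side of 1 in Sham depends on these choices and in AngII 24 h does not. Of 111 alternative values of single ratios 4 left the exact interval, and these were all of Snord22 (0.789, 1.01 and 0.396 after scaling, and 0.401 in the series table for AngII 24 h). The pseudocount is small beside the FPKM of these members, and many of the intervals are wide. Many values could therefore hardly leave the interval, and the count says little about how stable the ratios are. A fit over all groups with antibody and group as terms was not made. Precision is limited by the reads: the median value above 0 rests on 4.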
